A study of Mus musculus with 6 samples.

Results

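The genes described here are the protein components of the spliceosome, the machine that removes introns from pre-mRNA. They were taken as the genes that the deposited table places in the mouse KEGG spliceosome pathway, leaving out 1 gene of that pathway that is not reported here. This gave 131 of the 55416 genes in the table. RNA had been sequenced from muscle satellite cells (SCs), the stem cells that repair skeletal muscle, in 3 libraries from WT mice and 3 libraries from *Ltf*-KO mice. The *Ltf*-KO line lacks several exons of the lactoferrin gene in every tissue and was made by CRISPR-Cas9 in C57/BL6N zygotes, and the mice were adults. SCs of both genotypes were sorted from hind leg muscle as Sca1-, CD11b-, CD34+ and α7-integrin+ cells and were harvested after 4 days in growth medium with basic fibroblast growth factor at 10 ng/ml, chick embryo extract at 1% and fetal bovine serum at 20%, with no other treatment. The labels do not say whether the libraries came from separate animals, so the p-values measure only the spread between these libraries.

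The spliceosome is built anew on each intron from small nuclear ribonucleoproteins (snRNPs), each a small nuclear RNA with its proteins. The U1 snRNP binds the 5′ splice site and the U2 snRNP the branch site, the U4/U6 and U5 snRNPs then join as a tri-snRNP, and the Prp19 complex and a series of RNA helicases drive the remodelling that allows cutting and joining. Proteins of the SR and hnRNP families bind the pre-mRNA and influence which splice sites are used.

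The table gives TPM, a relative transcript abundance in which the reads of a gene are divided by its length and each library is scaled to 1 total. Levels can therefore be compared between genes, but the depth of sequencing behind a value is unknown. The 6 libraries summed to 993650 to 994356 TPM. The targeted gene *Ltf* was listed at 0.12, 0.02 and 0.02 TPM in WT and at 0.02, 0.03 and 0 TPM in *Ltf*-KO SCs, so its level does not tell the genotypes apart. The 8 myogenic markers, which include *Pax7*, *Myod1* and *Myog*, together reached 2172 to 2346 TPM in WT and 2184 to 2471 TPM in *Ltf*-KO libraries. The 5 macrophage markers reached 4.46 to 11.4 TPM in WT and 3.59 to 4.68 TPM in *Ltf*-KO, and the 5 fibroblast markers 101 to 106 TPM and 98.95 to 132 TPM, most of it *Col3a1*. The 5 endothelial markers gave 5.68 to 14.2 and 5.68 to 13.3 TPM, the 5 Schwann cell markers 21.1 to 37.4 and 25.2 to 37.1 TPM, and the 5 smooth muscle and pericyte markers, nearly all *Acta2*, 450 to 537 and 499.8 to 634 TPM. The part of these other cells in the values below was not tested. In bulk RNA, fewer cells of a type and less RNA per cell cannot be told apart.

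Spliceosome genes were among the more abundant messages of these SCs. Of the 131 members, 127 averaged 1 TPM or more across the 6 libraries and were tested. *Gm4340*, *Rbmxl2* and *Eif4a3l1*, the last a relative of *Eif4a3*, were listed at 0 in every library, and *Gm7879*, whose transcript shares most of its sequence with *Ppih*, stayed between 0 and 0.45 TPM. The median member tested had 83.6 TPM, against 16.0 TPM for the 12956 genes tested, and 120 of the 127 lay above that overall median. A level of 100 TPM or more was reached by 54 members (42.5%) and by 10.7% of all genes tested. These shares describe genes that had passed the same minimum. The 10 most abundant members held 32.0% of the TPM of the whole group. All members together took 1.66% to 1.67% of each library.

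**Figure D1:**
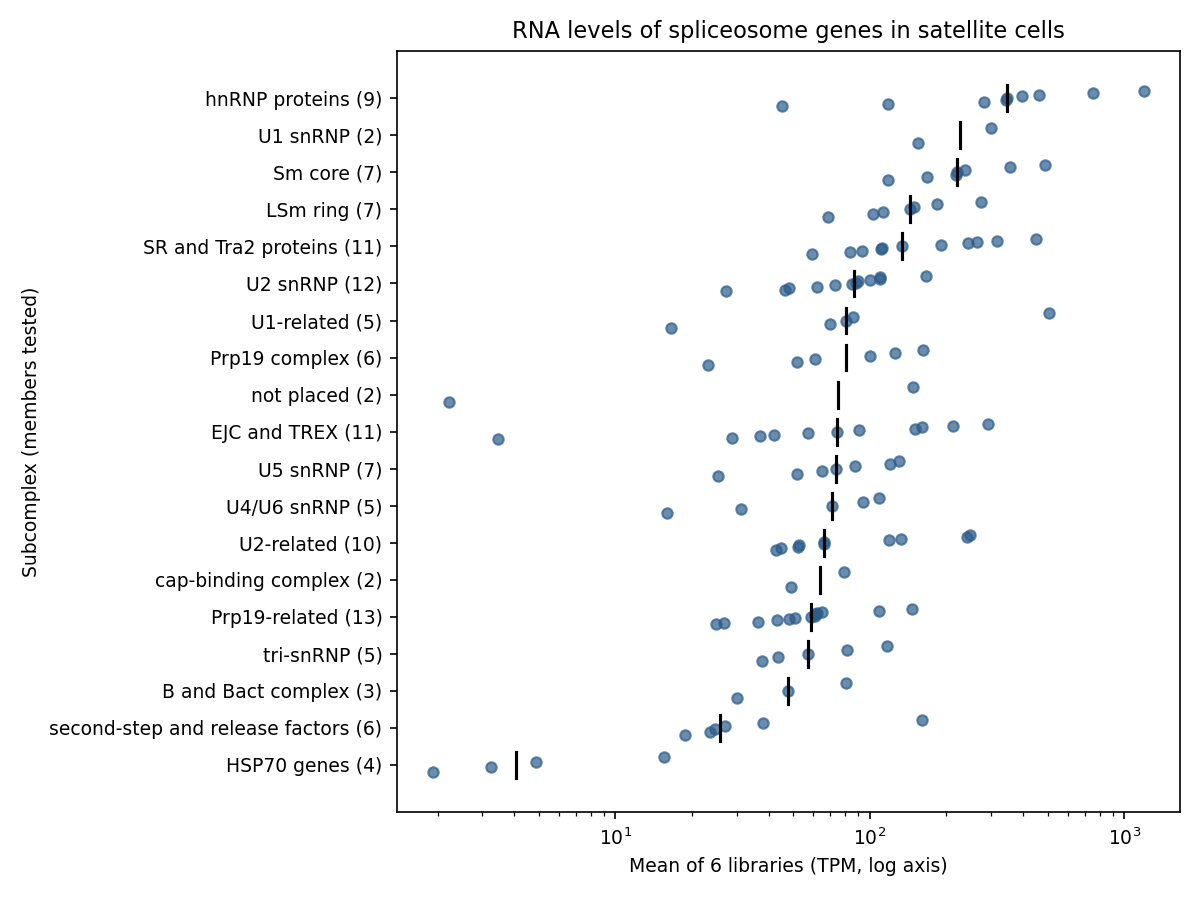
Levels of the 127 spliceosome genes tested, grouped by subcomplex (rows, with the number of members tested). Each point is the mean of 6 libraries of 1 gene in TPM on a log axis, the vertical bar is the median of the row, and rows run from the hnRNP proteins with a median of 346 TPM down to the HSP70 genes with a median of 4.05 TPM.

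A feature that the choice of members did not use was looked for in their promoters. RefSeq promoters on GRCm38.p6, from 250 bases before to 50 bases after each gene's start, were matched for 101 of the 131 members. The letters CGGAAG, the core that ETS family factors bind, stood on either strand in 61 of these promoters (60.4%). They stood in 33.3% of 9570 promoters of genes tested and in 17.2% of all 27025 promoters. CCAAT was found in 50.5% of member promoters, 39.2% of those of genes tested and 37.9% of all. The other cores were counted in members and in genes tested in the same way. GGGCGG, the GC box, stood in 65.3% against 66.2%, GCATGCGC, the NRF1 core, in 5.94% against 5.70%, AAGATGGC, the YY1 core, in 4.95% against 5.06%, CACGTG, an E-box, in 7.92% against 10.6%, and TATAAA in 9.90% against 6.92%. The median GC content was 59% in member promoters and 61.3% in those of genes tested, and the median number of CpG was 24 against 21. The promoters compared were not matched for level, and the median level was 83.6 TPM for members tested and 16.0 TPM for all genes tested. A match shows only that these letters are present.

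The promoters of 4 members are printed to show these letters beside the genes described below. ETS, NRF1 and YY1 cores on either strand are in capitals. *Snrpe* was the most abundant Sm gene and *Hnrnpa1* the most abundant member, while *U2af1l4* and *Snrpd3* had unadjusted, but not adjusted, p-values under 0.05 in the comparison of genotypes. The windows are chr1:133610231-133610530 on the minus strand for *Snrpe*, chr15:103240147-103240446 on the plus strand for *Hnrnpa1*, chr7:30563090-30563389 on the plus strand for *U2af1l4* and chr10:75517792-75518091 on the plus strand for *Snrpd3*.
Snrpe: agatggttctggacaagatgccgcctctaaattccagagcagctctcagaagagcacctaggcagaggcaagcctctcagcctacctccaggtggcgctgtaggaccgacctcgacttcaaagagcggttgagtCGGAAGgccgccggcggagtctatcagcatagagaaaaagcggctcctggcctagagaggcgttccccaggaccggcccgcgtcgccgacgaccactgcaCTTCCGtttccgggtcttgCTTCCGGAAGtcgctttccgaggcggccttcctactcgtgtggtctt
Hnrnpa1: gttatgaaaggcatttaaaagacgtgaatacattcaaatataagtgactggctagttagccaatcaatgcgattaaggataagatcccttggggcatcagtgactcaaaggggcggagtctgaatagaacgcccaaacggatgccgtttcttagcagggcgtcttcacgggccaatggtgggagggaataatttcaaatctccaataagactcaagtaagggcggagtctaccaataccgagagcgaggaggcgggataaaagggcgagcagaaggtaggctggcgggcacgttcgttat
U2af1l4: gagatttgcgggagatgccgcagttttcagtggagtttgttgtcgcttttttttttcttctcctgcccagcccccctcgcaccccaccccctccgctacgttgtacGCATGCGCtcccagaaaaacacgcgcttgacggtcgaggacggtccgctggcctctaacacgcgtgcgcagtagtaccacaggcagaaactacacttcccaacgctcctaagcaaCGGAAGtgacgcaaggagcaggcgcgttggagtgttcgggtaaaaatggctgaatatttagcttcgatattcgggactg
Snrpd3: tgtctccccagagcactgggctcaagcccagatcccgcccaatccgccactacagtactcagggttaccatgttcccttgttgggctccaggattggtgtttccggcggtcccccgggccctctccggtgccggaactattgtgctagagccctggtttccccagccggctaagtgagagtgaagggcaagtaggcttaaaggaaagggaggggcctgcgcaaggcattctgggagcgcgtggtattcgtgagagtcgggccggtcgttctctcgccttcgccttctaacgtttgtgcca
The *Snrpe* window held 4 ETS cores, of which a pair overlapped on opposite strands near the start. The *U2af1l4* window held 1 NRF1 core and 1 ETS core. The *Hnrnpa1* and *Snrpd3* windows held none of the 3 cores.

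The Sm proteins form the ring that surrounds the snRNA of the U1, U2, U4 and U5 snRNPs, and the related LSm proteins form the ring of U6. Although each ring takes its proteins in equal number, the RNA levels of the 7 Sm genes spanned 4.11-fold and those of the 7 LSm genes 4.00-fold. *Snrpe* was highest among the Sm genes at 486 TPM and *Snrpb* followed at 356 TPM. *Snrpf* at 236, *Snrpd1* at 219.5 and *Snrpd3* at 218 TPM overlapped their neighbours over the 6 libraries, and *Snrpg* at 168 and *Snrpd2* at 118 TPM lay below them. In the LSm ring *Lsm7* was highest at 274 TPM, *Lsm3* at 149 and *Lsm5* at 144 TPM overlapped, as did *Lsm8* at 113 and *Lsm2* at 103 TPM, and *Lsm6* was lowest at 68.4 TPM.

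**Figure D2:**
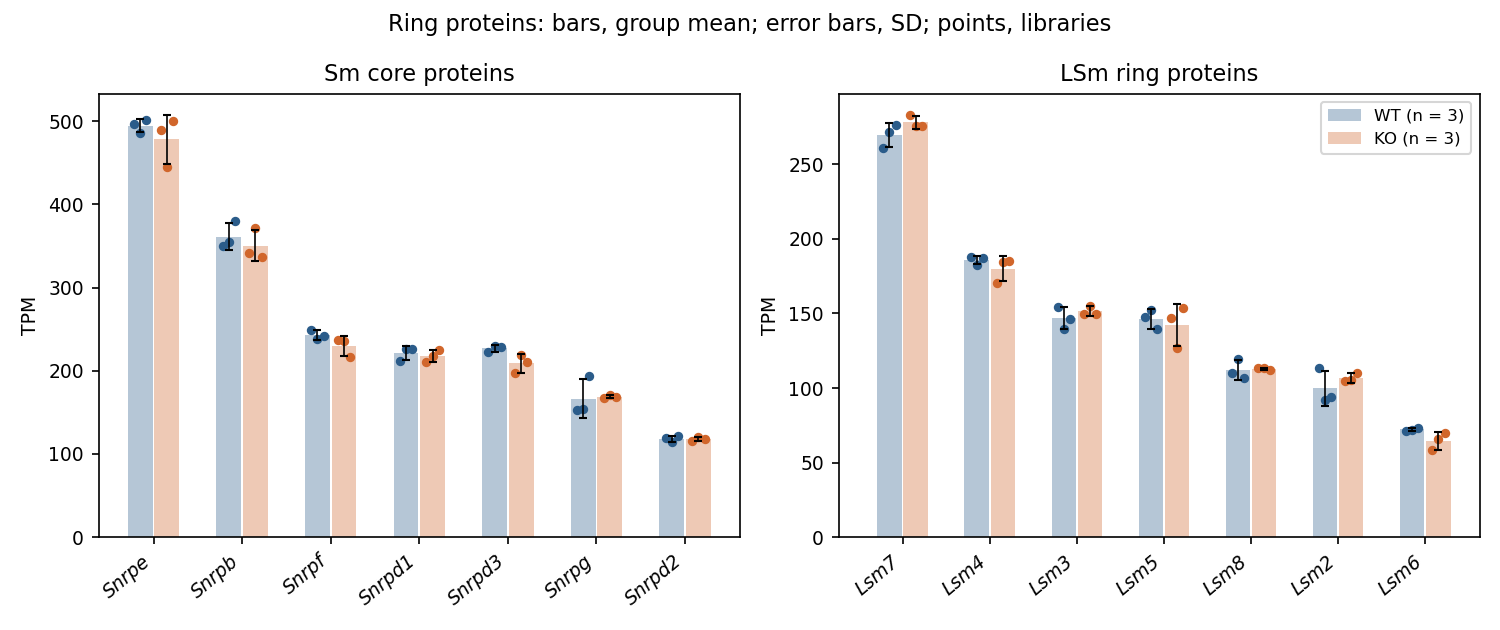
TPM of the 7 Sm genes (left) and the 7 LSm genes (right) in WT and *Ltf*-KO SCs. Bars are means of 3 libraries, error bars SD and points single libraries. Means over the 6 libraries run from 486 TPM for *Snrpe* to 118 TPM for *Snrpd2* and from 274 TPM for *Lsm7* to 68.4 TPM for *Lsm6*, and *Snrpf*, *Snrpd3* and *Lsm6* lie lower in every *Ltf*-KO library.

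The median level was 219.5 TPM for the Sm genes and 226.5 TPM for the U1 snRNP genes, and it was lower for the genes of the other snRNPs, at 86.6 TPM for U2, 73.8 TPM for U5 and 71.0 TPM for U4/U6. *Snrnp70*, the U1 protein that binds the snRNA and contacts SR proteins, had 298 TPM and *Snrpa*, the other U1 protein of the group, 155 TPM. The 12 U2 snRNP genes ran from 166 TPM for *Sf3b2* to 27.2 TPM for *Sf3b5*. *Sf3b1*, the large subunit that holds the branch site, had 88.4 TPM and overlapped *Snrpa1* and *Sf3b6*. The 2 subunits of U2AF, which reads the 3′ splice site, were close to each other, with *U2af2* at 248 and *U2af1* at 242 TPM. *Prpf8*, the protein at the catalytic centre, and *Eftud2*, the GTPase beside it, led the 7 U5 genes with overlapping levels of 129.8 and 120 TPM, and the U5 gene *Txnl4a* was lowest at 25.2 TPM. The U4/U6 genes ran from 109 TPM for *Snu13* to 16.0 TPM for *Prpf4*.

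Among the factors that remodel the spliceosome, *Prpf19*, the ubiquitin ligase of the Prp19 complex, stood at 162 TPM and *Ctnnbl1* at 23.1 TPM. *Dhx15*, a helicase that takes spliceosomes apart, had 160 TPM, against 38.2 TPM or less for the 5 other genes of the second step and release, *Dhx38*, *Prpf18*, *Slu7*, *Cdc40* and *Dhx8*. The exon junction and export genes spanned 84.6-fold, the widest range as a ratio, from *Ddx39b*, an export helicase, at 292 TPM to *Alyref2* at 3.45 TPM. *Magohb*, a near copy of the exon junction gene *Magoh*, had 19.4% ± 0.632 of the *Magoh* level in WT and 20.0% ± 1.36 in *Ltf*-KO libraries (SD, n = 3 each), and the groups overlapped.

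The hnRNP genes had the highest median of the subcomplexes, 346 TPM, and the SR and Tra2 genes had a median of 134 TPM. *Hnrnpa1*, which packages pre-mRNA and represses exons, had 1224, 1228 and 1169 TPM in WT and 1174, 1187 and 1205 TPM in *Ltf*-KO libraries. *Hnrnpk* followed with 754 TPM and *Hnrnpa3* with 460 TPM, and *Hnrnpm* and *Hnrnpc* overlapped at 346 and 343.5 TPM. Of the 11 SR and Tra2 genes *Srsf5* was highest at 448 TPM and *Srsf4* lowest at 59.2 TPM. *Tra2b* and *Tra2a*, close relatives, were at 111 and 110.5 TPM and could not be ordered. At the other end stood the 4 HSP70 genes that the pathway lists, with *Hspa1b* at 15.5 TPM, *Hspa1a* at 4.86, *Hspa2* at 3.24 and *Hspa1l* at 1.91 TPM. *Hspa1a* and *Hspa1b* share most of their sequence (58.8% of the 50-base stretches of *Hspa1a* and 62.3% of those of *Hspa1b* occur in the other), so the division of reads between them is uncertain. Other levels carry this limit to a lesser degree, such as those of *Hnrnpa1*, *Hnrnpa3*, *Magohb* and *Snrpf*. These share 28.2%, 27.1%, 26.8% and 21.3% of their stretches with other genes on the same strand.

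The question of the design was how these genes differ between *Ltf*-KO and WT SCs. None of the 127 members passed the test. With limma on log2(TPM + 1) and Benjamini-Hochberg adjustment over the 12956 genes tested, 0 members had an adjusted p under 0.05, as did 0.0% of all genes tested, and the lowest adjusted p of a member was 0.999. At an unadjusted p under 0.05 there were 4 members, or 3.15%, against 3.78% of all genes tested. Of these, 3 were higher in *Ltf*-KO SCs, where 2.01% of all genes tested were, and 1 was lower, where 1.78% were. The counts of members were thus near the background. Every value in *Ltf*-KO libraries lay above every WT value for 5 members and below for 8, together 10.2% of members against 8.46% of all genes tested.

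Differences were small as well as uncalled. Log2 differences of the members ranged from −0.24 for *Snrpb2* to 0.37 for *Gm49396*, and 112 members (88.2%) were within 0.1 of 0, against 69.2% of all genes tested. The 95% confidence interval lay wholly within 1.25-fold in either direction for 114 members (89.8%), against 58.4% of all genes tested, and reached beyond 2-fold for 0 members. These shares were not matched for level, and members had a median of 83.6 TPM against 16.0 TPM for all genes tested. How much of the contrast goes with level was not tested. The 13 members whose interval left the 1.25-fold bounds were 3 of the 4 HSP70 genes (*Hspa1b*, *Hspa1a* and *Hspa1l*), *U2af1l4*, *Txnl4a*, *Gm49396*, *Snrpb2*, *Lsm6*, *Thoc1*, *Thoc3*, *Isy1*, *Prpf40b* and *Rp9*. The narrow intervals went with close replicates. For the 68 members between 10 and 100 TPM the median coefficient of variation was 3.87% in WT and 4.05% in *Ltf*-KO libraries, against 5.58% and 5.85% for all 6681 genes at that level. The gap was smaller for the 54 members at 100 TPM or more, with 2.67% in WT and 3.16% in *Ltf*-KO libraries. All 1391 genes at that level had 3.42% and 3.55%.

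**Figure D3:**
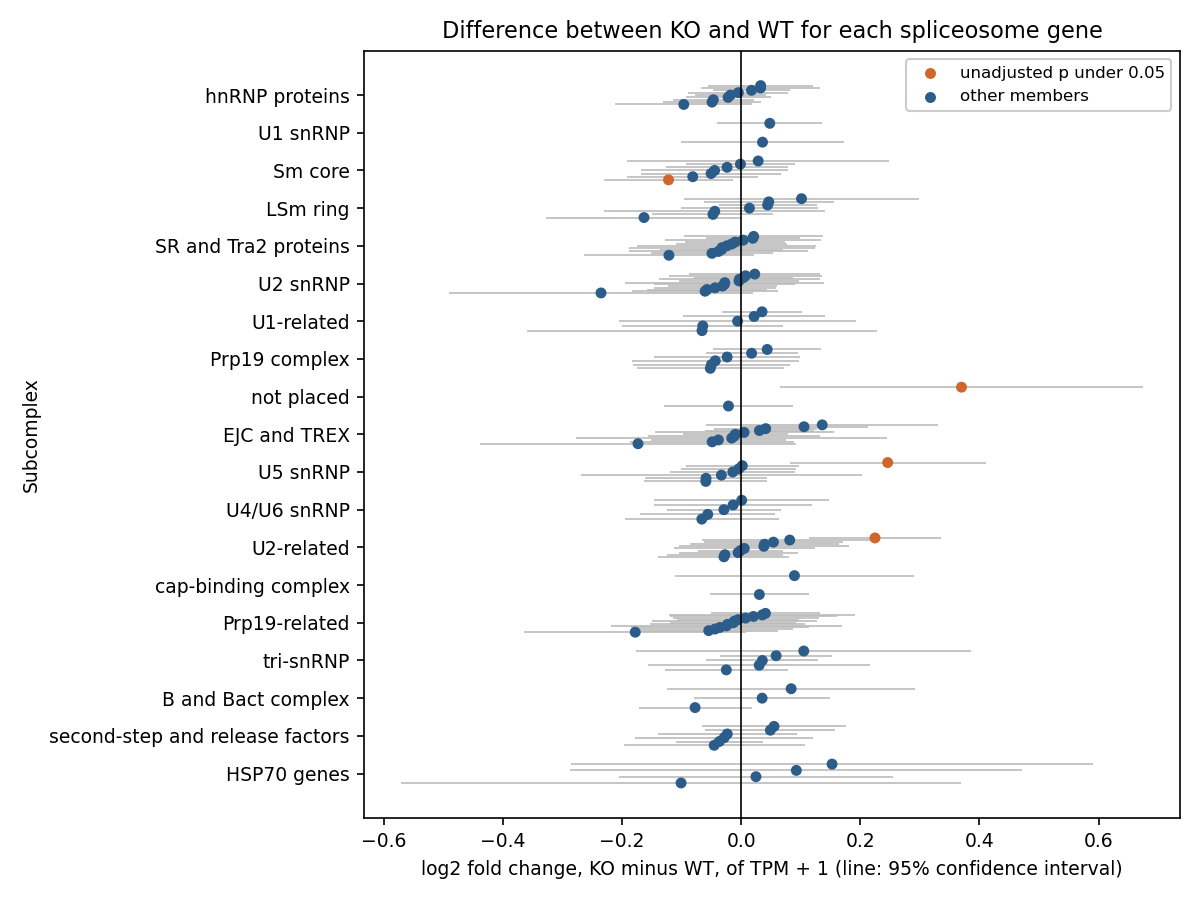
Log2 difference, *Ltf*-KO minus WT, of TPM + 1 for the 127 members tested, by subcomplex (rows). Points are members, grey lines 95% confidence intervals and orange points the 4 members with an unadjusted p under 0.05, and the points lie between −0.24 and 0.37.

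The median log2 difference was −0.01 for members and 0.01 for all genes tested, with 75 members lower and 52 higher in *Ltf*-KO SCs (59.1% lower, against 44.3% of all genes tested). Without *Ltf*-KO replicate 1 there was no such majority, with 62 members lower and 65 higher (48.8% lower, against 46.2% of all genes tested). With median-of-ratios scaling 83 members were lower and 44 higher (65.4% lower, against 49.3%). Summed over all members, the WT libraries held 16643, 16574 and 16590 TPM and the *Ltf*-KO libraries 16477, 16469 and 16507 TPM. Each *Ltf*-KO sum was below each WT sum, and the means differed by 0.711%. Of the snRNP groups, the 7 Sm genes summed to 1800, 1803 and 1892 TPM in WT and 1758, 1781 and 1776 TPM in *Ltf*-KO libraries, which do not overlap and differ by 3.30%. WT replicate 3 was the highest, and without it the difference was 1.68%. Its *Snrpg* level of 193 TPM stood above the 153 TPM of both other WT libraries and the 167 to 171 TPM of *Ltf*-KO SCs. The sums of the LSm ring, the U1 snRNP, the U5 snRNP and the SR and Tra2 genes overlapped between genotypes.

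*Snrpd3*, an Sm ring gene on chr10:75517551-75537381 (plus strand, GENCODE M21, GRCm38), was the lower member at an unadjusted p under 0.05. It had 222.5, 230 and 229 TPM in WT and 197, 219 and 211 TPM in *Ltf*-KO libraries, so that all *Ltf*-KO values were lower. The log2 difference was −0.12 (SE 0.045, limma, n = 3 per group, unadjusted p = 0.0324, adjusted p = 0.999). Without *Ltf*-KO replicate 1, its lowest library, the difference was −0.08 with an unadjusted p of 0.0902. Of the other Sm genes, *Snrpf* also had every *Ltf*-KO value below WT, at 249, 238 and 242 TPM in WT and 237, 236 and 216 TPM in *Ltf*-KO (unadjusted p = 0.122 in limma), and was chosen after its values were seen. *Snrpe*, *Snrpb*, *Snrpd1*, *Snrpg* and *Snrpd2* overlapped between genotypes.

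*U2af1l4* codes for a relative of the small U2AF subunit. Its level was 46.8, 48.6 and 50.6 TPM in WT and 55.97, 58.9 and 56.2 TPM in *Ltf*-KO libraries. Every *Ltf*-KO value was thus above every WT value. The log2 difference was 0.22 (SE 0.046, limma, n = 3 per group, unadjusted p = 0.00224, adjusted p = 0.999), the lowest p among the members. The unadjusted p stayed under 0.05 in all 13 alternative analyses, in which the log2 difference was 0.20 to 0.25 and the adjusted p 0.864 to 1. *U2af1* itself, with the limit of shared sequence given above, had 238, 254 and 233 TPM in WT and 230, 251 and 246 TPM in *Ltf*-KO libraries, which overlap. Relative to *U2af1*, *U2af1l4* stood at 20.2% ± 1.38 in WT and 23.6% ± 0.745 in *Ltf*-KO SCs (SD, n = 3 each) and the groups did not overlap.

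The *U2af1l4* locus limits this value. *U2af1l4* lies on chr7:30563301-30565365 (plus strand, GRCm38) and *Gm49396*, a gene model that runs on into the neighbour *Igflr1*, on chr7:30563344-30567960 of the same strand. Of the 50-base stretches of *U2af1l4* transcripts, 42.1% also occur in *Gm49396*. *Gm49396* had 1.56, 1.74 and 2.16 TPM in WT and 2.63, 2.67 and 2.59 TPM in *Ltf*-KO libraries, again without overlap, with a log2 difference of 0.37 (SE 0.127, limma, n = 3 per group, unadjusted p = 0.0243, adjusted p = 0.999). Its unadjusted p was under 0.05 in 6 of 12 alternatives. The reads of both genes cannot be told apart where they share exons, so they are not separate observations. *Psenen*, a gamma-secretase subunit gene that overlaps them on the minus strand at chr7:30561863-30563627, had 105, 97.4 and 97.6 TPM in WT and 102, 103 and 100.2 TPM in *Ltf*-KO libraries, which overlap (limma, unadjusted p = 0.574). Whether the reads were counted by strand is not given in the sources used here.

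*Txnl4a*, the small thioredoxin-like protein of the U5 snRNP, had 23.9, 24.2 and 20.9 TPM in WT and 27.9, 27.8 and 26.5 TPM in *Ltf*-KO libraries. All *Ltf*-KO values were higher, and WT replicate 3 was the lowest. The log2 difference was 0.25 (SE 0.069, limma, n = 3 per group, unadjusted p = 0.0100, adjusted p = 0.999), and it was 0.18 to 0.28 over 13 alternatives, all with an unadjusted p under 0.05. *Gm16286* overlaps *Txnl4a* on the same strand and shares 15.3% of its own 50-base stretches with it, and *Txnl4a* shares 10.8% of its own with *Gm16286*. The reads of these stretches cannot be told apart, so the level of *Txnl4a* depends on how they were divided. *Gm16286* was more abundant, at 144, 148 and 154 TPM in WT and 144, 153 and 142 TPM in *Ltf*-KO libraries, and the groups overlapped. The *Txnl4a* level was 15.5% ± 1.71 of the *Gm16286* level in WT and 18.7% ± 0.647 in *Ltf*-KO (SD, n = 3 each), without overlap. None of the 6 other U5 genes was separated between genotypes. *Prpf8* had 130.4, 132 and 128 TPM in WT and 128, 135 and 125 TPM in *Ltf*-KO libraries.

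**Figure D4:**
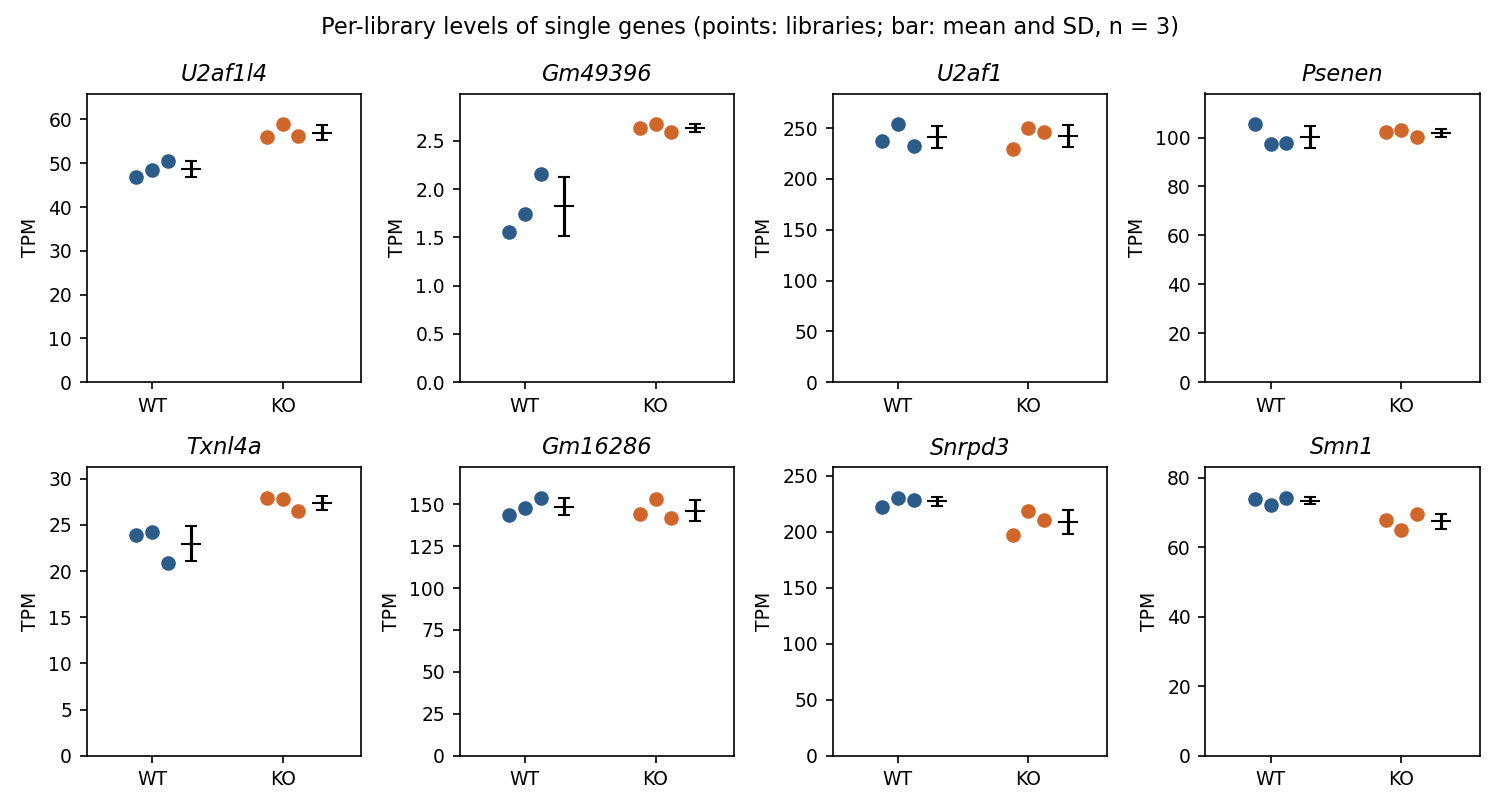
TPM of 8 genes in the 3 WT and 3 *Ltf*-KO libraries (points), with mean and SD beside them and axes from 0. *U2af1l4*, *Gm49396* and *Txnl4a* lie higher in every *Ltf*-KO library and *Snrpd3* and *Smn1* lower, while *U2af1*, *Psenen* and *Gm16286* overlap.

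Sequence shared on the same strand thus touched 3 of the 4 members at an unadjusted p under 0.05. Over all members, 29 of 131 shared more than 10% of their 50-base stretches with another gene on the same strand, and 46 shared none on that strand. Sharing on the opposite strand was left out of these counts. Some of the 46 shared none on either strand, and the highest of the 46 on the opposite strand were *Srsf4* (39.5%), *Thoc1* (22.9%), *Srsf2* (20.7%) and *Prpf31* (16.1%). Members that shared 10% or less on the same strand, but not none, reached more on the opposite strand, with *Hspa1l* at 71.4%, *Alyref2* at 47.8% and *Snw1* at 43.1%. As the strand setting is unknown, the members kept below may still share reads with other genes. Leaving out those 29, 101 members tested remained and 1 of them, *Snrpd3*, had an unadjusted p under 0.05, and the summed TPM was 1.02% lower in *Ltf*-KO SCs. This comparison was added after the data were seen.

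The remaining members without overlap between genotypes had unadjusted p-values above 0.05 in the comparison of all 6 libraries and, apart from *Lsm6*, *Hnrnpc*, *Dhx15* and *Rbmx*, were named after their values were seen. *Lsm6*, of the U6 ring, had 71.3, 72.0 and 73.5 TPM in WT and 58.25, 65.9 and 69.7 TPM in *Ltf*-KO libraries (limma, log2 −0.16, SE 0.068, unadjusted p = 0.0506). The *Ltf*-KO libraries were more spread than the WT ones, with replicate 1 lowest, and without that library the log2 difference of *Lsm6* was −0.09. The unadjusted p of *Lsm6* was 0.0151 to 0.120 over 13 alternatives and under 0.05 in 6 of them, and the adjusted p was 0.946 or more. *Snrpb2*, a U2 snRNP protein, had 61.3, 50.9 and 45.05 TPM in WT and 44.99, 43.3 and 43.8 TPM in *Ltf*-KO libraries (limma, log2 −0.24, SE 0.106, unadjusted p = 0.0649). The values of WT replicate 3 and *Ltf*-KO replicate 1 nearly touched. The log2 difference of *Snrpb2* was −0.12 without WT replicate 1, its highest library, and −0.34 without WT replicate 3. The log2 differences of *Hnrnpc*, *Rbmx*, *Dhx15* and *Prpf38a* were −0.05, −0.10, −0.04 and −0.08, and *Thoc2* (log2 0.11) and *Plrg1* (log2 0.04) were higher.

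Of the 32 members on the core list, 30 overlapped between genotypes, and *Hnrnpc* and *Dhx15* did not. Of all genes tested, 8.46% did not overlap, so a count of 2 is near the background. *Sf3b1* had 86.2, 97.2 and 84.3 TPM in WT and 84.3, 84.7 and 93.4 TPM in *Ltf*-KO libraries. *Snrnp70* had 271, 307 and 306 TPM in WT and 294, 311 and 299.8 TPM in *Ltf*-KO libraries. For *Snrnp70* the 95% interval of the log2 difference was −0.10 to 0.17 and for *Sf3b1* −0.19 to 0.14. The core list also held *Snrnp200* (interval −0.09 to 0.10), *U2af2* (−0.07 to 0.07), *Eif4a3* (−0.05 to 0.13), *Srsf1* (−0.17 to 0.13), *Srsf3* (−0.15 to 0.05) and *Hnrnpa1* (−0.09 to 0.05). Among the HSP70 genes, *Hspa1a*, *Hspa1b* and *Hspa1l* had wide intervals. *Hspa1b*, a heat-inducible chaperone gene, had 15.3, 12.9 and 16.5 TPM in WT and 15.4, 19.8 and 13.0 TPM in *Ltf*-KO libraries, with *Ltf*-KO replicate 2 highest and an interval of −0.29 to 0.47.

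Genes that act beside the major spliceosome were looked at as whole lists. Of 8 proteins of the U11/U12 minor spliceosome, which removes a rare class of introns, 0 had an unadjusted p under 0.05 (limma), where 3.78% of all genes tested did. Their sum was 285 to 313 TPM in WT and 285 to 316 TPM in *Ltf*-KO libraries. Of 14 genes that assemble snRNPs, 0 passed the adjusted threshold and 1 was lower at an unadjusted p under 0.05, where 1.78% of all genes tested were. The list summed to 687 to 692 TPM in WT and 669.7 to 686 TPM in *Ltf*-KO libraries, which do not overlap. The gene at an unadjusted p under 0.05 was *Smn1*, the survival of motor neuron gene whose complex loads Sm rings onto snRNA, with 73.7, 72.2 and 74.2 TPM in WT and 67.7, 64.98 and 69.5 TPM in *Ltf*-KO libraries, all lower (limma, log2 −0.12, SE 0.041, n = 3 per group, unadjusted p = 0.0222, adjusted p = 0.999). *Smn1* was named after its p-value was seen. Of its partners, *Gemin2*, *Gemin4*, *Gemin5*, *Gemin6*, *Gemin7* and *Gemin8* all had unadjusted p-values of 0.344 or more. Of 7 kinases that phosphorylate SR proteins and 11 splicing regulators known from muscle, such as *Mbnl1*, *Celf1* and *Rbfox2*, 0 had an unadjusted p under 0.05, against the same 3.78%. At that share, lists this short can hold 0 such genes without differing from the background.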

How the data were processed

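The authors deposited TPM for 55416 genes in 3 WT and 3 *Ltf*-KO libraries, extracted and normalized by the sequencing company's protocol. The submitters' processing notes name the build GRCm39, and the aligner, the counting tool and any strand setting are not given in the sources used here. The unit was taken from the values, which sum to nearly 1 total in each library. TPM keeps no depth, so precision was judged from the replicates, and count models were not run.

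The members and lists were chosen with earlier results of these data known. Genes averaging 1 TPM or more were compared with limma 3.58.1 in R 4.3.3 (lmFit and eBayes with a variance trend) on log2(TPM + 1), two-sided, with Benjamini-Hochberg adjustment over all genes tested. The pseudocount was 1, and a fold change on this scale is understated for low genes. The code was tested on simulated data. No test was made of sums, medians or lists.

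Named were a core list, the highest and lowest member of each subcomplex, members at an unadjusted p under 0.05 (up to 10 in each direction) and *Ltf*. Other members are given for their place in a subcomplex, or were chosen after their values were seen. *Smn1*, which is not a member, was also chosen after its values were seen. Gene positions were read by identifier from the GENCODE M21 annotation of GRCm38 and are not those of the authors' build. Shared sequence was the share of a gene's transcript 50-base stretches found in another gene's transcripts of the same annotation, on the same strand unless stated otherwise.

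Alternatives were a pseudocount of 0.1, no filter, a mean of at least 10 TPM, median-of-ratios scaling, quantile normalization, no variance trend, a block for the replicate number, leaving out single libraries, and members without the HSP70 genes or without those in no subcomplex. Leaving out members with shared sequence, and single libraries for *Snrpb2* and the Sm sum, was added after seeing the data.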

Additional observations from a re-analysis of the deposited data

How the results depend on the processing

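The count of 0 members at an adjusted p under 0.05 held in each alternative in which it was computed, with 3 to 6 members at an unadjusted p under 0.05. The count of lower members, 1 as reported, was 2 with a pseudocount of 0.1, with no filter, at a mean of at least 10 TPM and with median-of-ratios scaling, 3 with quantile normalization and 0 with no variance trend. The replicate numbers did not pair the libraries (correlations of deviations −0.04, −0.06 and −0.09), and with the replicate number as a block there were 5 members at an unadjusted p under 0.05, of which 2 were lower, and 0 at an adjusted p under 0.05. Median-of-ratios scaling moved the median log2 difference from −0.012 to −0.022 and the *Ltf*-KO sum from 99.3% to 98.6% of WT. Without members that share over 10% of their sequence on the same strand the sum was 98.98% and 1 member had an unadjusted p under 0.05. Leaving out 1 library at a time gave 2 to 5 higher and 0 to 2 lower members at an unadjusted p under 0.05, a median of −0.012 to 0.0014, 23 to 32 members without overlap (13 as reported, with fewer libraries to overlap) and a sum of 99.2% to 99.4%. The share of all genes tested without overlap is not given for these smaller sets of libraries. The 23 to 32 members therefore cannot be set against a background. The median was positive only without *Ltf*-KO replicate 1. The causes of these shifts were not tested.

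Of the 61 named genes, 28 changed sign in some alternative, all of them when 1 library was left out and 5 also under another setting. The difference of *Snrpd3* had an unadjusted p under 0.05 in 8 of 13 alternatives and that of *Gm49396* in 6 of 12. As TPM holds no depth, counting error could not be separated from differences between cultures.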
